A study of Homo sapiens with 6 samples.

Results

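The genes that make, export and load microRNAs were examined in DU145 cells, an established human prostate cancer cell line, with and without overexpression of the circular RNA circCSPP1. The group holds the 4 Argonaute genes (AGO1, AGO2, AGO3 and AGO4), the 3 TNRC6 scaffold genes (TNRC6A, TNRC6B and TNRC6C), the nucleases DROSHA and DICER1, and the export receptor XPO5. They were taken by symbol from the deposited table, which gave 10 of its 19727 genes, and all 10 passed the filter of a mean of at least 1 FPKM (fragments per kilobase of transcript, scaled to sequencing depth) that left 12322 genes for testing. DU145 cells carrying lentivirus-circCSPP1 were compared with DU145 cells carrying lentivirus-NC, the control vector, with 3 libraries of polyadenylated RNA in each group. Both were stable lines selected with puromycin, and nothing states that the 3 libraries of a group came from separately made lines, so that p-values measure only the spread between these libraries, which may be technical.

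A microRNA begins as a hairpin in a longer nuclear transcript, which DROSHA and its partner DGCR8 cut out. XPO5 carries the hairpin to the cytoplasm, where DICER1 trims it to a duplex, and an Argonaute protein keeps a single strand of it as a guide. TNRC6 proteins, also called GW182, bind Argonaute and bring in the deadenylases and decapping factors that silence the target mRNA. In the sponge model that the study addresses, a circular RNA draws such guide-loaded Argonaute away from mRNAs, and the study immunoprecipitated AGO2 to look for circCSPP1 bound to it. The genes of this machinery are described here at the level of mRNA. MicroRNAs themselves were not measured in these libraries.

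The microRNA that the study pairs with circCSPP1 is miR-520h. Its mature sequence is shown because bases 2 to 8, the seed, are what Argonaute presents to a target. Among the 2370 mature microRNAs of RefSeq (GRCh38.p14), 2 have this seed, both encoded on the plus strand of chromosome 19. The sequences are written 5′ to 3′, with the seed in capitals.
hsa-miR-520h: aCAAAGUGcuucccuuuagagu
hsa-miR-520g-3p: aCAAAGUGcuucccuuuagagugu
The first lies at chr19:53742566-53742587 and is 22 nt long, and the second at chr19:53722220-53722243 and is 24 nt long. A seed shared by both means that a target match of these 7 bases cannot tell them apart.

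The depth of each library, read from the steps between low FPKM values, lay between 28800000 and 36400000 fragments and overlapped between the groups. CSPP1, the parent gene of the circular RNA, measured 9.11 to 10.1 FPKM in the lentivirus-NC libraries and 14.5 to 22.8 FPKM in the lentivirus-circCSPP1 libraries, in the direction of the labels. A gene-level value does not separate the circle from the linear transcript, and a circle has no poly(A) tail for the selection to hold. The study reported that lentivirus-circCSPP1 raised the circle and not the mRNA or protein of CSPP1. Which RNA the higher CSPP1 values come from was not tested. All 8 markers of epithelial and DU145-type cells exceeded 1 FPKM, with sums of 4054 to 4207 FPKM with lentivirus-NC against 3285 to 4284 FPKM with lentivirus-circCSPP1. Of these, KRT8, KRT18, KRT19, EPCAM and CDH1 were lower in every lentivirus-circCSPP1 library than in every lentivirus-NC library, and KRT7 and EGFR were higher. Their part in the results below was not tested. The androgen-axis genes KLK3, KLK2 and FOLH1 were at 0 in all 6 libraries, as were the leukocyte markers CD3E and MS4A1 and the fibroblast marker LUM. Of the marker lists, summed leukocyte levels were 46.4 to 52.1 FPKM with lentivirus-NC against 36.6 to 51.7 FPKM with lentivirus-circCSPP1, most of it CD68. Fibroblast markers summed to 3.02 to 4.39 and 1.35 to 3.02 FPKM, and endothelial markers to 0.32 to 0.71 and 0.19 to 0.82 FPKM. Lentivirus-circCSPP1 replicate 1 stood apart from replicates 2 and 3 along transcript GC content. Across the tested genes with a coding transcript, which share these libraries and are not independent replicates, the Spearman correlation of its departure with GC content was 0.784. The log2 fold changes of the 10 genes are therefore given with and without it. For genes of the wider lists below, log2 fold changes are given with it only, and the number called is given both ways.

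No gene of the group passed an adjusted p of 0.05 between lentivirus-circCSPP1 and lentivirus-NC (limma on log2(FPKM + 1) with Benjamini-Hochberg adjustment over all 12322 genes). In a bulk library, a lower level per cell and fewer cells with the transcript cannot be told apart, which holds for each gene here. The differences were small: AGO2 and XPO5 were higher by 20.5% and 14.7% of the lentivirus-NC mean, and AGO1 and DROSHA were lower. In the background, 11.4% of all tested genes passed that threshold, 4.69% higher and 6.66% lower in lentivirus-circCSPP1. At an unadjusted p under 0.05, 3 of the 10 passed (AGO1, AGO2 and XPO5), against 28.2% of all tested genes, and an unmoderated least-squares fit also called 0 of the 10 at an adjusted p of 0.05, against 6.77% of all tested genes. At the cut-offs of the study (p of 0.01, taken here as unadjusted because the study does not say, with a log2 fold change of 1.5 either way), 0 of the 10 passed, as against 0.195% of all tested genes. The log2 fold changes, which on this scale understate the change of low genes, were positive in 5 genes and negative in 5. Their median was 0.05, and that of all tested genes -0.03. The median absolute log2 fold change was 0.15 in the group and 0.19 in all tested genes.

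**Figure D1:**
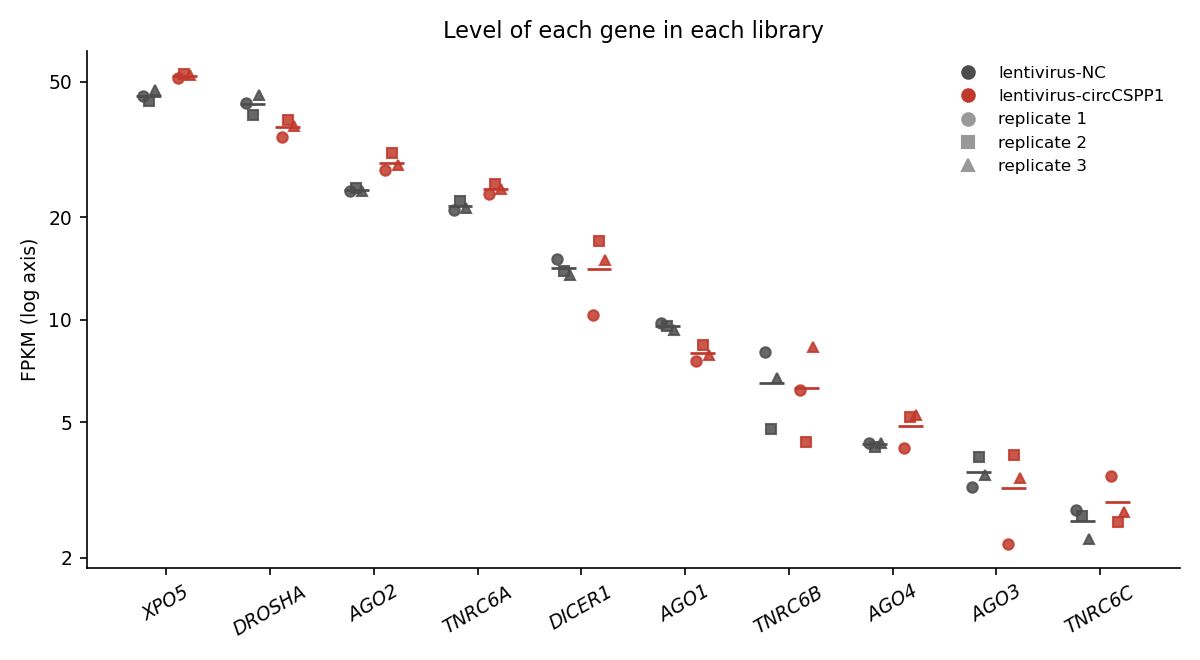
Level of each gene in each library, in FPKM on a log axis, with genes ordered by their mean over the 6 libraries; points are libraries, marker shapes give the replicate number, and short lines are group means (grey, lentivirus-NC; red, lentivirus-circCSPP1; n = 3 each). AGO2, AGO1, TNRC6A, DROSHA and XPO5 have groups that do not overlap, while DICER1 and AGO3 are lowest in lentivirus-circCSPP1 replicate 1.

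In 5 of the 10 genes (AGO1, AGO2, TNRC6A, DROSHA and XPO5) the lentivirus-circCSPP1 libraries lay entirely to one side of the lentivirus-NC libraries, a pattern that 36.4% of all tested genes had. For a single gene, the exact two-sided permutation test cannot give a p under 0.10 with 3 libraries against 3, and it gave 0.10 in each of these 5. The plot of levels by library shows that these gaps were narrow beside the differences in level between genes.

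FPKM divides by transcript length, so that levels can be ordered between genes. The order, and the shares within each family given below, depend on the lengths behind the deposited values, which are not stated. XPO5 and DROSHA led in lentivirus-NC, at 45.4 ± 1.69 and 42.9 ± 2.98 FPKM (SD, n = 3), and their libraries overlapped there. They were followed by AGO2, TNRC6A, DICER1, AGO1, TNRC6B, AGO4, AGO3 and TNRC6C, and each of these neighbours was separated in every library. The order of the means was the same in lentivirus-circCSPP1. There, XPO5 no longer overlapped DROSHA, while TNRC6B overlapped both AGO1 and AGO4, and AGO3 overlapped TNRC6C. From the top to the bottom of the order, the means ran from 45.4 to 2.56 FPKM with lentivirus-NC and from 52.0 to 2.91 FPKM with lentivirus-circCSPP1.

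DROSHA, the nuclear nuclease that makes the first cut, lies on the minus strand of chromosome 5 of GRCh38, from 31400497 to 31532196 (GENCODE release 29). Its FPKM values in replicates 1, 2 and 3 were 43.2, 39.8 and 45.7 with lentivirus-NC, against 34.3, 38.7 and 37.1 with lentivirus-circCSPP1. The lowest lentivirus-NC library was thus just above the highest lentivirus-circCSPP1 library. On the log2 scale the difference was -0.22 (standard error 0.094, 95% interval from -0.44 to 0.00040, adjusted p = 0.18). Over the alternatives it ran from -0.27 to -0.17, with adjusted p from 0.062 to 0.45. DGCR8, the double-stranded RNA-binding partner that anchors the hairpin for DROSHA, had 21.1 ± 0.444 FPKM with lentivirus-NC against 22.8 ± 0.451 FPKM with lentivirus-circCSPP1 (SD, n = 3), which is 0.11 as log2 fold change (adjusted p = 0.45). The ratio of DROSHA to DGCR8 within a library, picked after the values were seen and given without a test, was 2.10, 1.86 and 2.16 in lentivirus-NC and 1.53, 1.70 and 1.59 in lentivirus-circCSPP1.

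XPO5, the exportin that recognises the hairpin and carries it out of the nucleus with RAN bound to GTP, lies on the minus strand of chromosome 6, from 43522330 to 43576075. It measured 45.3, 43.7 and 47.1 FPKM in the lentivirus-NC libraries and 51.1, 52.6 and 52.4 FPKM in the lentivirus-circCSPP1 libraries. The groups did not overlap, and the spread within them was among the smallest of the tested genes, with 2.09% of genes below it. The log2 fold change was 0.19 (standard error 0.078, 95% interval from 0.011 to 0.38, adjusted p = 0.16), and it stayed between 0.17 and 0.22 over the alternatives, with adjusted p from 0.039 to 0.42. With lentivirus-circCSPP1 replicate 1 left out the value was 0.21 (adjusted p = 0.044), a fit in which 28.5% of all tested genes passed. RAN itself varied more, from 341 ± 47.6 to 365 ± 9.27 FPKM (SD, n = 3), which is 0.11 as log2 fold change (adjusted p = 0.57). Since XPO5 was higher and DROSHA lower, the ratio of XPO5 to DROSHA within a library was 1.03 to 1.10 in lentivirus-NC and 1.36 to 1.49 in lentivirus-circCSPP1, again a description picked after the values were seen.

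DICER1, which trims the exported hairpin to a duplex, lies on the minus strand of chromosome 14, from 95086228 to 95158010. It measured 15.1, 13.9 and 13.5 FPKM in the lentivirus-NC libraries and 10.3, 17.01 and 15.0 FPKM in the lentivirus-circCSPP1 libraries. The lentivirus-NC libraries were close together, whereas those of lentivirus-circCSPP1 spanned both sides of them. On the log2 scale the group means differed by -0.03 (standard error 0.17, adjusted p = 0.93), and the 95% interval of the difference, from -0.44 to 0.38, corresponds to 0.737-fold to 1.297-fold on the log2(FPKM + 1) scale. A change of either sign within these bounds is therefore compatible with these libraries. Without lentivirus-circCSPP1 replicate 1 the log2 fold change was 0.16 (adjusted p = 0.22). After a loess correction for GC content and transcript length in each library it was 0.02 with a standard error of 0.072 (adjusted p = 0.83).

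TARBP2 and PRKRA, double-stranded RNA-binding partners of DICER1, did not pass the test either. TARBP2 measured 35.6 ± 2.01 FPKM with lentivirus-NC against 38.1 ± 6.50 FPKM with lentivirus-circCSPP1 (SD, n = 3), which is 0.09 as log2 fold change (adjusted p = 0.72). Its higher mean rests on lentivirus-circCSPP1 replicate 1, at 45.5 FPKM. Replicates 2 and 3, at 33.1 and 35.8 FPKM, were below the highest lentivirus-NC library, at 37.9 FPKM. PRKRA, also known as PACT, measured 13.9 ± 1.26 and 11.1 ± 1.03 FPKM (log2 fold change -0.30, adjusted p = 0.14), with groups that did not overlap.

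**Figure D2:**
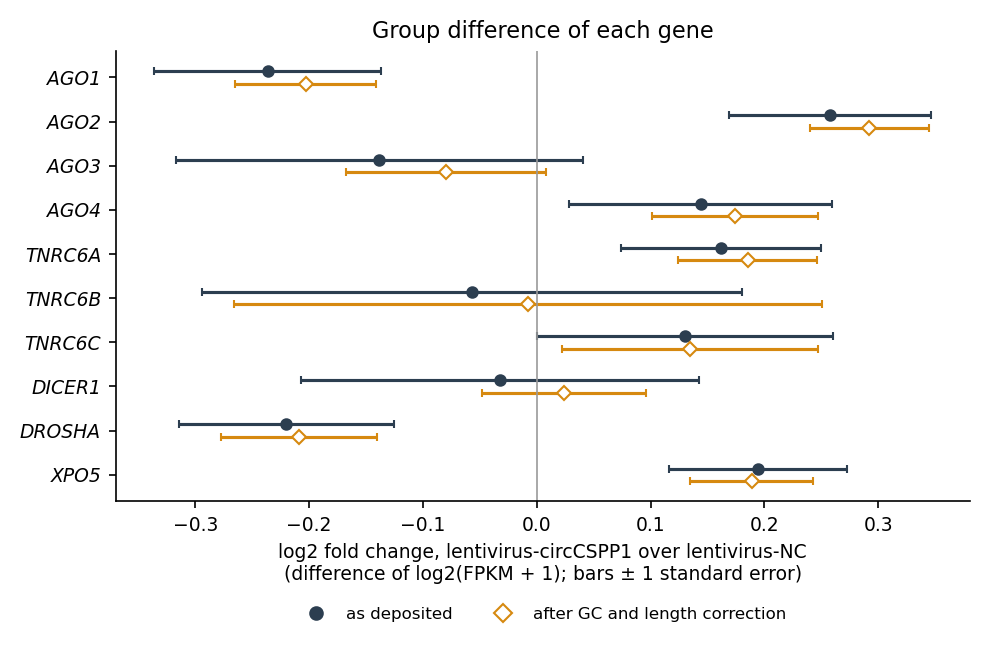
Log2 fold change of lentivirus-circCSPP1 over lentivirus-NC for each gene, as the difference of mean log2(FPKM + 1) with bars of 1 standard error from limma; filled circles use the deposited values and open diamonds the values after a loess correction for GC content and transcript length in each library. The bars of AGO3 and DICER1 are shorter after the correction, from 0.18 to 0.087 and from 0.17 to 0.072, and the bar of TNRC6B is not.

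The Argonaute genes encode the proteins that hold the guide strand. AGO2 is the best known for slicing fully paired targets, and all 4 can silence through TNRC6. AGO4, AGO1 and AGO3 lie in tandem on the plus strand of chromosome 1 of GRCh38, at 35808172 to 35857890, 35869808 to 35930528 and 35930718 to 36072500. The end of AGO1 and the start of AGO3 are separated by 189 bases in GENCODE. AGO2 lies apart from them on the minus strand of chromosome 8, from 140520156 to 140635619. The genes of the tandem group did not all differ in the same direction: the log2 fold change was negative in AGO1 and AGO3 and positive in AGO4, and none of the 3 passed the test.

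AGO2 had the highest level of the family. It measured 23.9, 24.4 and 23.8 FPKM in the lentivirus-NC libraries and 27.5, 30.8 and 28.5 FPKM in the lentivirus-circCSPP1 libraries. Every lentivirus-circCSPP1 library was above every lentivirus-NC library, and the lentivirus-NC libraries differed little among themselves. The log2 fold change of 0.26 had a standard error of 0.089 and a 95% interval from 0.051 to 0.46, and it did not pass the correction for all genes (adjusted p = 0.11). Over the alternatives it lay between 0.21 and 0.29, with adjusted p from 0.0080 to 0.29. It was 0.29 both after the GC and length correction (adjusted p = 0.0080) and without lentivirus-circCSPP1 replicate 1 (adjusted p = 0.022). In those fits 28.7% and 28.5% of all tested genes passed.

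AGO1, the second Argonaute by level, differed the other way. It measured 9.75, 9.59 and 9.34 FPKM in the lentivirus-NC libraries and 7.57, 8.45 and 7.89 FPKM in the lentivirus-circCSPP1 libraries, again without overlap. The log2 fold change was -0.24 (standard error 0.099, 95% interval from -0.47 to -0.0043, adjusted p = 0.17), and over the alternatives it lay between -0.27 and -0.18, with adjusted p from 0.048 to 0.40. After the GC and length correction it was -0.20 (adjusted p = 0.048), a fit in which 28.7% of all tested genes passed. With the replicate block added to that correction the adjusted p was 0.10. Without lentivirus-circCSPP1 replicate 1, on the values as deposited, the log2 fold change was -0.20 (adjusted p = 0.092).

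AGO3 and AGO4 were expressed at lower levels, and their groups overlapped. AGO3 measured 3.23, 3.96 and 3.50 FPKM with lentivirus-NC against 2.19, 4 and 3.44 FPKM with lentivirus-circCSPP1, with replicate 1 of the latter the lowest of the 6. Its log2 fold change, -0.14 with a standard error of 0.18, did not pass (adjusted p = 0.67), and it was 0.05 without that library. AGO4 measured 4.35, 4.22 and 4.34 FPKM with lentivirus-NC against 4.20, 5.19 and 5.25 FPKM with lentivirus-circCSPP1, where replicate 1 was at the level of the controls. Its log2 fold change, 0.14 with a standard error of 0.12, did not pass (adjusted p = 0.46), and without replicate 1 it came to 0.23 (adjusted p = 0.078). AGO4 has a single coding transcript in GENCODE, of 7116 nt, on which its values correspond to between 865 and 1282 fragments per library.

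With AGO2 higher and AGO1 lower in these libraries, their shares of the Argonaute transcripts differed too, as the stacked levels show. Neither gene passed the test, and the shares, given without a test, restate these differences. Of single tested genes, 36.4% had groups that did not overlap, and no such background was computed for shares or ratios. The 4 genes summed to 41.2, 42.1 and 40.98 FPKM in the lentivirus-NC libraries and to 41.5, 48.5 and 45.0 FPKM in the lentivirus-circCSPP1 libraries. AGO2 made up 57.8% to 58.1% of this sum in lentivirus-NC and 63.2% to 66.4% in lentivirus-circCSPP1. The share of AGO1 was 22.8% to 23.7% in lentivirus-NC and 17.4% to 18.2% in lentivirus-circCSPP1. The shares of AGO3 (7.84% to 9.40% and 5.28% to 8.26%) and AGO4 (10.01% to 10.6% and 10.1% to 11.7%) overlapped between the groups.

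The ratio of AGO2 to AGO1, taken within a library, does not depend on how libraries are scaled. It was 2.45, 2.54 and 2.55 in lentivirus-NC replicates 1, 2 and 3 and 3.64, 3.65 and 3.61 in lentivirus-circCSPP1 replicates 1, 2 and 3, with means of 2.51 ± 0.0558 and 3.63 ± 0.0206 (SD, n = 3). The difference of the mean log2 ratios was 0.53. The longest coding transcripts of both genes are close in GC content, at 46.6% for AGO2 and 46.4% for AGO1, and in length, at 14581 and 13708 nt. The lengths behind the deposited FPKM are not stated, and a part of GC content or length in the ratio was not tested. Lentivirus-circCSPP1 replicate 1 did not stand apart from replicates 2 and 3 in this ratio. Since each gene already lay apart between the groups, in opposite directions, their ratio had to lie apart as well. The pair was picked after the values were seen, and no test is given.

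**Figure D3:**
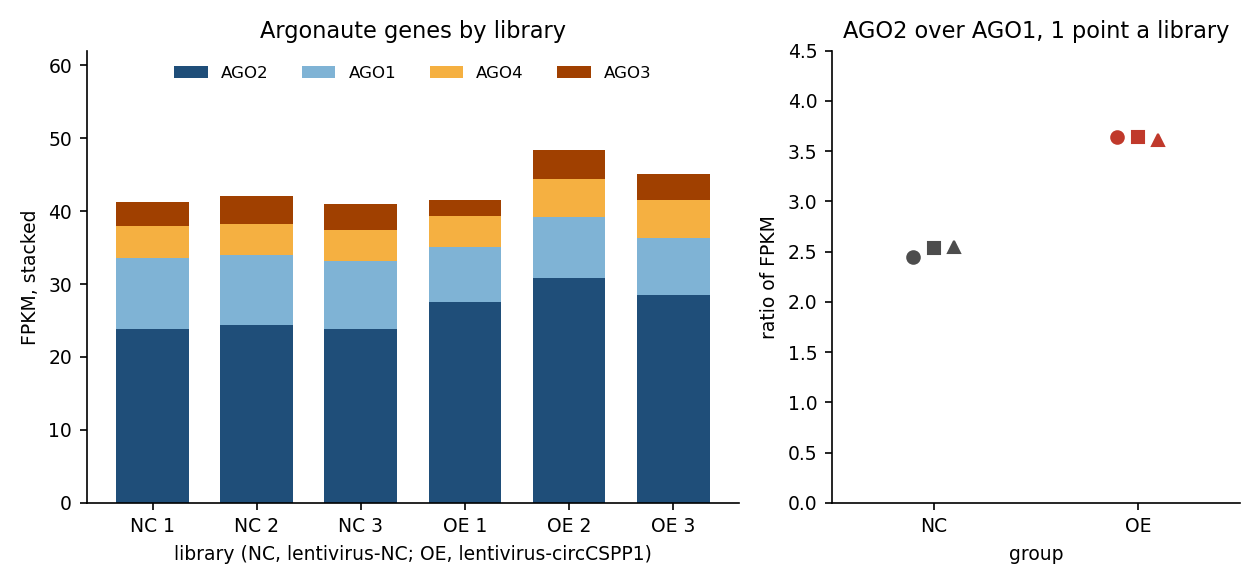
Left, FPKM of the 4 Argonaute genes stacked for each library; right, the ratio of AGO2 to AGO1 FPKM in each library, with 3 libraries in each group and marker shapes for replicate numbers. The ratio is 2.45 to 2.55 in the lentivirus-NC libraries and 3.61 to 3.65 in the lentivirus-circCSPP1 libraries, while the summed levels of 40.98 to 42.1 and 41.5 to 48.5 FPKM lie closer together.

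TNRC6A was the leading scaffold gene. It lies on the plus strand of chromosome 16, from 24610209 to 24827632, and measured 20.9, 22.3 and 21.3 FPKM in the lentivirus-NC libraries and 23.4, 25.0 and 24.1 FPKM in the lentivirus-circCSPP1 libraries. The groups did not overlap, and the log2 fold change was 0.16 (standard error 0.088, 95% interval from -0.042 to 0.37, adjusted p = 0.27). It lay between 0.14 and 0.19 over the alternatives, with adjusted p from 0.063 to 0.55, and was 0.18 without lentivirus-circCSPP1 replicate 1 (adjusted p = 0.081).

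TNRC6B and TNRC6C did not differ beyond their spread. TNRC6B, on the plus strand of chromosome 22 from 40044817 to 40335808, measured 8.06, 4.79 and 6.75 FPKM with lentivirus-NC against 6.21, 4.38 and 8.31 FPKM with lentivirus-circCSPP1. It was the most variable gene of the group, with a standard deviation within groups larger than that of 93.5% of all tested genes. The log2 fold change was -0.06, and its 95% interval from -0.61 to 0.50 (adjusted p = 0.90) is the widest of the 10. Without lentivirus-circCSPP1 replicate 1 the log2 fold change was -0.07 (adjusted p = 0.88). The GC and length correction did not narrow its standard error, which was 0.24 before and 0.26 after.

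TNRC6C, on the plus strand of chromosome 17 from 77959240 to 78108835, had the lowest level, at 2.76, 2.65 and 2.27 FPKM with lentivirus-NC against 3.47, 2.54 and 2.72 FPKM with lentivirus-circCSPP1. The difference of 0.13 on the log2 scale (adjusted p = 0.56, standard error 0.13) came to 0.03 without lentivirus-circCSPP1 replicate 1, its highest library. TNRC6A made up 65.9% to 75.0% of the summed TNRC6 level in lentivirus-NC and 68.6% to 78.3% in lentivirus-circCSPP1, ranges that overlapped. The summed level was 29.7 to 31.8 FPKM with lentivirus-NC against 32.0 to 35.2 FPKM with lentivirus-circCSPP1.

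What the 10 genes share is long transcripts, most of them with a GC content below the median of the tested genes. All 10 have a longest coding transcript above the median of the tested genes, 3354 nt, from 5305 nt for DROSHA to 19687 nt for AGO3. In 9 of the 10 the GC content was below the median of 49.3%, with XPO5 close to it at 49.0%, and TNRC6C, at 50.7%, was the exception. Lentivirus-circCSPP1 replicate 1 was the lowest of its group in 8 of the 10 genes, a count that was not made over all tested genes. Its departure from the mean of replicates 2 and 3 was -0.58 and -0.56 on the log2 scale in DICER1 and AGO3, the genes with the lowest GC content (39.2% and 38.9%), and 0.30 in TNRC6C. Over the 10 genes, which come from the same libraries, the Spearman correlation of this departure with GC content was 0.758. The median departure of all tested genes was -0.04.

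**Figure D4:**
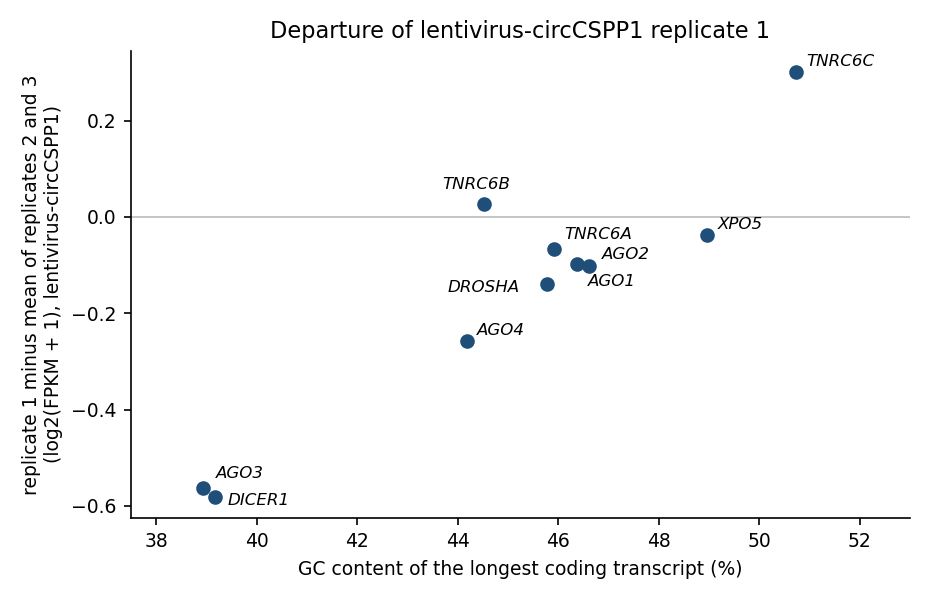
Departure of lentivirus-circCSPP1 replicate 1 from the mean of replicates 2 and 3, in log2(FPKM + 1), against the GC content of the longest coding transcript of each gene; each point is 1 gene. DICER1 and AGO3, at 39.2% and 38.9% GC, lie lowest at -0.58 and -0.56, and TNRC6C, at 50.7% GC, lies highest at 0.30.

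After the correction for GC content and length, AGO1 and AGO2, as above, and XPO5 (log2 fold change 0.19, adjusted p = 0.039) passed an adjusted p of 0.05, which is 3 of 10 genes against 28.7% of all tested genes. DROSHA and TNRC6A, with adjusted p of 0.062 and 0.063, were just outside. The standard errors fell in 9 of the 10 genes, TNRC6B being the exception. With lentivirus-circCSPP1 replicate 1 left out instead, AGO2 and XPO5 passed, which is 2 of 10 against 28.5% of all tested genes. With both steps together AGO1 and AGO2 passed, again 2 of 10, against 30.9% of all tested genes. With all 6 libraries and the values as deposited, AGO1, AGO2 and XPO5 did not pass.

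Among the 12312 tested genes ranked, those whose pattern over the 6 libraries was most like that of AGO2, by Pearson correlation of log2(FPKM + 1), were ZNF623, TXNL4B, CBX8, C1orf109 and MBNL1, with r of 0.994 to 0.997. With 6 libraries in 2 groups such values are common, and 585 genes had r above 0.9. Among the other 9 genes of the group, the most similar was TNRC6A (r = 0.972, rank 96), followed by XPO5 (r = 0.901, rank 580). DROSHA and AGO1 had r of -0.69 and -0.77. The levels of MBNL1, a splicing regulator, were 58.3 FPKM with lentivirus-NC against 80.2 FPKM with lentivirus-circCSPP1.

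Around this core, 97 further genes of the microRNA pathway were examined, written as 8 lists from general knowledge, and 93 passed the filter on low values. Of these 93, 6 rose and 2 fell at an adjusted p of 0.05, 8.60% against 11.4% of all tested genes, and the median log2 fold change was 0.0011. A share this near the background is not a result about the pathway as a whole. LIN28B, which blocks the maturation of let-7 microRNAs, was at 0 in all 6 libraries, and LIN28A and TRIM71 had group means of at most 0.017 FPKM.

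Among 13 DROSHA partners and helpers, 1 rose, against 4.69% of all tested genes. KHSRP, which binds the terminal loop of some hairpins, rose from 282 ± 4.398 to 344 ± 9.46 FPKM (SD, n = 3; log2 fold change 0.29, adjusted p = 0.031). The other 12 did not pass, and neither did any of the 4 export genes.

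In the list of 4 DICER1 partners, DHX9 fell, where 6.66% of all tested genes did. This RNA helicase, which unwinds double-stranded RNA, measured 69.5 ± 2.85 FPKM with lentivirus-NC against 47.7 ± 6.86 FPKM with lentivirus-circCSPP1 (SD, n = 3), which is -0.54 as log2 fold change (adjusted p = 0.028). Of the 11 genes of Argonaute loading, HSPA8 fell. It encodes the constitutive HSC70 chaperone that helps open Argonaute for the small RNA duplex, and it measured 614 ± 75.5 and 305 ± 64.1 FPKM (log2 fold change -1.02, adjusted p = 0.0095). Fragments of HSPA8 can be shared with its processed pseudogenes, which makes its level uncertain. Over the loading list as a whole the median was -0.17 on the log2 scale, 8 genes being lower and 3 higher, and HSPA8 was its single call. Of all tested genes, 6648 were lower and 5674 higher, and 11.4% were called. The direction of the list was not tested.

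Downstream of Argonaute, 2 of 20 deadenylation genes rose and none of 16 decapping and translational repression genes did, against 4.69% of all tested genes. Of those 16, 12 had a positive log2 fold change (median 0.14). Over all tested genes, 5674 were higher and 6648 lower, and the direction of this list was not tested. TOB2, an adaptor that links the CCR4-NOT deadenylase to poly(A)-binding protein, rose from 34.3 ± 1.13 to 54.8 ± 1.93 FPKM (SD, n = 3), which is 0.66 as log2 fold change (adjusted p = 0.0049). PABPC4, a cytoplasmic poly(A)-binding protein, rose from 79.2 ± 2.77 to 102 ± 2.79 FPKM (log2 fold change 0.36, adjusted p = 0.024). In the list of Argonaute partners, of which 13 were tested, FXR2, a relative of the fragile X protein, rose with a log2 fold change of 0.31 (adjusted p = 0.045) and RBM4, an RNA-binding splicing regulator, with one of 0.34 (adjusted p = 0.038). After the GC and length correction the log2 fold change of RBM4 was 0.38 and no longer passed (adjusted p = 0.099), and its fragments can be shared with its close copy RBM4B. TENT4A, a non-canonical poly(A) polymerase, was the single call of the tailing and decay list, with a log2 fold change of 0.39 (adjusted p = 0.026).

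The calls of TOB2 and HSPA8 held when any 1 library was left out, and those of the other 6 genes did not. TOB2 kept its call in 19 of 19 alternatives and HSPA8 in 18. Of the 93 genes, 2 passed without any 1 of lentivirus-NC replicates 1, 2 and 3 or without lentivirus-circCSPP1 replicate 3 (2.15%, against 2.43%, 2.57%, 3.3% and 3.65% of all tested genes in those fits). Without lentivirus-circCSPP1 replicate 2, 5 passed (5.38% against 9.41%), and without lentivirus-circCSPP1 replicate 1, 21 passed (22.6% against 28.5%). After the GC and length correction, 22 passed (23.7% against 28.7%). In each of these fits the share of the list was below that of all tested genes. It was above it without moderation of the variance (8.6% against 6.77%) and with no filter on mean FPKM (8.33% against 8.2%). Shares this near the background are not a result about the list.

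**Figure D5:**
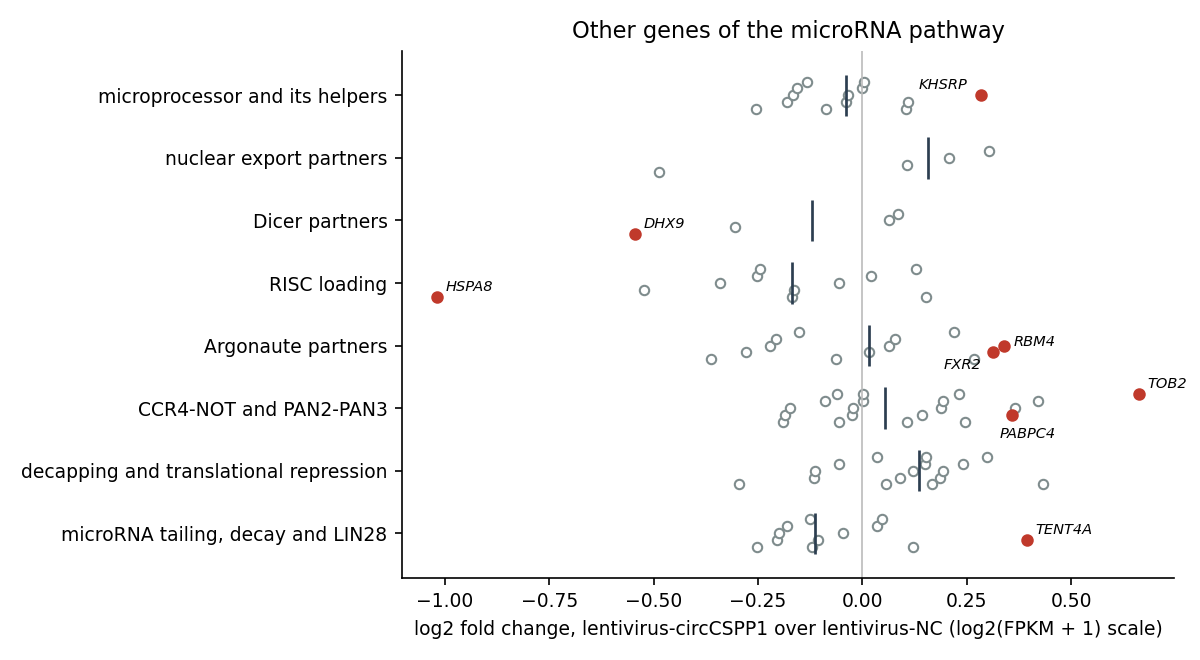
Log2 fold change of lentivirus-circCSPP1 over lentivirus-NC for the 93 tested genes of the wider microRNA pathway, by list; each point is 1 gene, red and named points have an adjusted p under 0.05 (limma), and vertical bars are list medians. HSPA8 at -1.02 and TOB2 at 0.66 lie at the ends, and the list medians lie between -0.17 and 0.16.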

How the data were processed

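RNA-seq of 6 DU145 libraries was analysed. The authors purified poly(A) RNA with oligo-dT beads, ran paired-end NovaSeq sequencing and deposited FPKM values rounded to 2 decimals; the submitters' processing notes name hg38, and the aligner, the FPKM program and the annotation are not given in the sources used here. FPKM steps depend on the transcript length the authors used, which is not stated, so no count model was fitted. All 6 columns were matched to samples by group and replicate number, with 0 left unused.

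Depth was estimated as the fragment total, searched between 22000000 and 43000000, that put FPKM times length of single-transcript genes under 800 nt within 0.15 of whole numbers up to 10; 93.0% to 98.8% of values met this. Transcript length and GC content are those of the longest protein-coding transcript in GENCODE release 29.

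log2(FPKM + 1) was tested with limma 3.58.1 in R 4.3.3 (trend, two-sided, no covariate), with Benjamini-Hochberg adjustment over 12322 genes (mean FPKM of 1 or more). The GC and length correction subtracted a loess surface (span 0.3) fitted per library on genes of at least 10 FPKM. The alternatives used a pseudocount of 0.1 or 0.01, either no filter or one at 5 FPKM, 3 scalings, 2 variance models, the replicate block, the correction, and each library left out; the correction without lentivirus-circCSPP1 replicate 1 was added after the data were seen. The fit was tested on simulated data. The genes examined and the lists were chosen with earlier results of these data known. All 10 genes were named, then up to 4 called genes per list by p, DGCR8, TARBP2, PRKRA, RAN, CSPP1 and the 5 genes most like AGO2; any other gene was picked with its values in view. Before counting, 1 gene was left out of the wider lists, and it is not reported here.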

Additional observations from a re-analysis of the deposited data

How the results depend on the processing

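Each result was recomputed under 19 alternatives, or 18 for AGO3, AGO4 and TNRC6C, which had a mean under 5 FPKM; the last, the GC and length correction without lentivirus-circCSPP1 replicate 1, was chosen after seeing the data. The number of the 10 genes called, 0 as reported, was 3 after the GC and length correction, 1 with the replicate block and that correction, 2 with the correction without lentivirus-circCSPP1 replicate 1, and 0 to 2 when 1 library was left out. For the 93 wider pathway genes, 8 as reported, it was 22, 16 and 25 under those settings and 2 to 21 when 1 library was left out. For all genes, 1399 as reported, it was 3528, 2707 and 3799, 834 without moderation of the variance, and 300 (without lentivirus-NC replicate 1) to 3512 (without lentivirus-circCSPP1 replicate 1). The cause was not tested.

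Same-numbered libraries had correlations of their deviations of 0.073, 0.0065 and 0.057. For lentivirus-circCSPP1 replicates 1 and 3 the same-numbered library correlated best. Lentivirus-circCSPP1 replicate 2 correlated best with lentivirus-NC replicate 3 (0.036). All these values were small, and the numbers were not taken to pair the libraries. With the replicate block 0 of the 10 genes, 3 of the wider genes and 923 of all genes were called.

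The direction of AGO1, AGO2, AGO4, TNRC6A, TNRC6C, DROSHA and XPO5 was the same under every alternative run. With 1 library left out, the log2 fold change of AGO3 ran from -0.275 to 0.049, that of TNRC6B from -0.250 to 0.145 and that of DICER1 from -0.173 to 0.161; AGO3 turned positive without lentivirus-circCSPP1 replicate 1. TNRC6B turned to 0.025 with quantile normalization, 0.088 without lentivirus-NC replicate 1 and 0.145 without lentivirus-circCSPP1 replicate 2. DICER1 turned to 0.0026 with quantile normalization, 0.024 with the GC and length correction, with or without the replicate block, 0.055 with the correction without lentivirus-circCSPP1 replicate 1, 0.011 without lentivirus-NC replicate 1 and 0.161 without lentivirus-circCSPP1 replicate 1. None of these 3 genes passed the test under any setting. At these depths, and if each value rests on the longest coding transcript, AGO4 and TNRC6C have the fewest fragments. The length that was used is not stated, and AGO3, with coding transcripts down to 1035 nt, could have fewer.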
